A study of Mus musculus with 10 samples.

Results

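The fibroblast growth factor (FGF) genes examined here are the ligands and homologous factors Fgf1 to Fgf23, the receptors Fgfr1 to Fgfr4 and Fgfrl1, and genes that the pathway switches on to restrain or relay its own signal: the Sprouty genes Spry1 to Spry4, the Spred genes Spred1 to Spred3, the phosphatase Dusp6 and the ETS transcription factors Etv4 and Etv5. They were taken by a rule on gene symbols that used no values, but the set was chosen with earlier results of these data known. Each gene was represented by its probe set with the highest mean over all arrays. Of 19938 genes with a probe set of 1 symbol, 37 were FGF genes, measured by 39 probe sets. They comprised 22 ligands and homologous factors, 5 receptors and 10 feedback and ETS genes.

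RNA came from the epidermis of 3-day-old mice, freed from the dermis with dispase, and was hybridized to 5 arrays of ILK-deficient and 5 arrays of ILK-expressing tissue, 1 mouse per array. Both genotypes were littermates heterozygous for a KRT14-cre transgene, in which the keratin 14 promoter drives Cre recombinase in basal keratinocytes and the cells derived from them. ILK-deficient mice (K14Cre; Ilk f/f) carried floxed Ilk alleles on both chromosomes, whereas ILK-expressing mice (K14Cre; Ilk f/+) carried 1 floxed allele, so that the controls also expressed Cre. Integrin-linked kinase (ILK) is a scaffold protein that links integrins to the actin cytoskeleton, and the arrays were made to find which transcripts differ in epidermis without it.

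FGF ligands bind receptor tyrosine kinases together with heparan sulfate, and the receptors signal through adaptors and RAS to the kinase ERK. ERK activity induces Sprouty and Spred proteins, which act against RAS-ERK signaling, Dusp6, which dephosphorylates ERK, and the ETS factors Etv4 and Etv5. In skin, mesenchymal ligands such as Fgf7 and Fgf10 act on the epithelial isoform of Fgfr2, Fgf5 ends hair growth, and Fgfr1 and Fgfr2 in keratinocytes maintain the epidermal barrier.

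Values are log2 signals of a probe set, in which 1 unit is a doubling. They compare genotypes for 1 probe set, and do not rank different genes by abundance. The test took in probe sets that reached a linear signal of 50 on 5 arrays or more, as 32 of the 37 FGF genes did. Adjusted p values come from limma and were corrected by the Benjamini-Hochberg method across the 32046 probe sets that entered the fit. The Ilk probe set, which also pools exons outside the floxed part, averaged 8.94 ± 0.118 in ILK-deficient and 9.17 ± 0.181 in ILK-expressing epidermis (SD, n = 5 each; limma adjusted p = 0.253), so it does not check the deletion. The paper checked it by other means. It reports much less ILK protein on immunoblots of ILK-deficient epidermis, and lower signal of exons in the floxed part on the arrays. Keratinocyte markers were well above the minimum in both genotypes. Of 7 basal markers, Trp63 was higher (log2 fold change 0.35, limma adjusted p = 0.0204) and Krt14 lower (−0.23, limma adjusted p = 0.0452) in ILK-deficient epidermis, and 0 of the 6 suprabasal markers tested passed, all with log2 fold changes below 0. Hair shaft and inner root sheath markers were lower in ILK-deficient epidermis for 8 of 8 genes, with a median log2 fold change of −3.70.

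Of the tested FGF genes, 8 were higher in ILK-deficient epidermis and 0 were lower at an adjusted p under 0.05. These were the receptors Fgfr1 and Fgfr2, the ligand Fgf2, and the feedback and ETS genes Spry2, Spred1, Dusp6, Etv4 and Etv5, with changes between 1.32-fold and 1.74-fold. The identity of the Etv5 probe set is uncertain, and with the other Etv5 probe set 7 FGF genes were called. The called share was 25% of the tested FGF genes, against 3.78% of all probe sets tested, 2.81% being higher and 0.97% lower. For 7 of the 8, all but Etv4, no array of one genotype overlapped the other, which held for 21.9% of the tested FGF genes and 6.33% of all probe sets (4.37% higher, 1.96% lower). All probe sets include those with no gene symbol, and over the 18121 tested genes, each by its probe set of highest mean, 5.81% were called (4.41% higher) and 9.4% did not overlap. Where the probe sets of a gene were averaged first and p values adjusted over genes, the same count of 8 FGF genes stood beside 9.34% of all genes. By role, 5 of the 9 tested feedback and ETS genes, 2 of the 5 receptors and 1 of the 18 tested ligands and homologous factors passed. Several of the ligands lay near the minimum signal, where differences are harder to detect. The median log2 fold change was 0.06 over the tested FGF genes and 0.00 over all probe sets, and 25 of the 32 were above 0, against 51% of all probe sets and 51.8% of all genes. At an unadjusted p under 0.05, 11 FGF genes were higher and 0 lower, against 15.9% of all probe sets past that limit (10.2% higher, 5.65% lower) and 20.9% of all genes. The remaining 24 tested genes did not pass.

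Because the samples are whole tissue, fewer cells of a type and less RNA per cell cannot be told apart in any of these values. Markers of other cell types also moved with the genotype. The 9 melanocyte markers were above 0 on the log2 fold change scale in every case, with a median of 0.98, and 6 of them passed. Their summed linear signal was 7773 to 14286 on ILK-deficient arrays and 2554 to 5213 on ILK-expressing arrays. Of 10 dermal fibroblast markers 0 passed, all were above 0 with a median of 0.20, and their summed signal was 5363 to 8359 in ILK-deficient and 2477 to 6916 in ILK-expressing tissue. Outer root sheath and bulge markers were higher for 5 of 7 genes, and 0 of 7 endothelial markers passed. Macrophage markers were higher for 2 of 7 genes, Adgre1 (log2 fold change 0.50, limma adjusted p = 0.0107) and Lyz2 (0.45, limma adjusted p = 0.0375), and their summed signal was 1037 to 1256 in ILK-deficient and 934 to 1206 in ILK-expressing tissue. Single genes of other lists passed too, Hhip being higher of 8 dermal papilla markers, Thy1 of 4 tested T cell markers and Sox10, also a melanocyte marker, of 2 tested Schwann cell markers, and Dlx3 being lower of 7 hair matrix markers. The part of these cell types in the FGF gene differences was not tested.

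**Figure D1:**
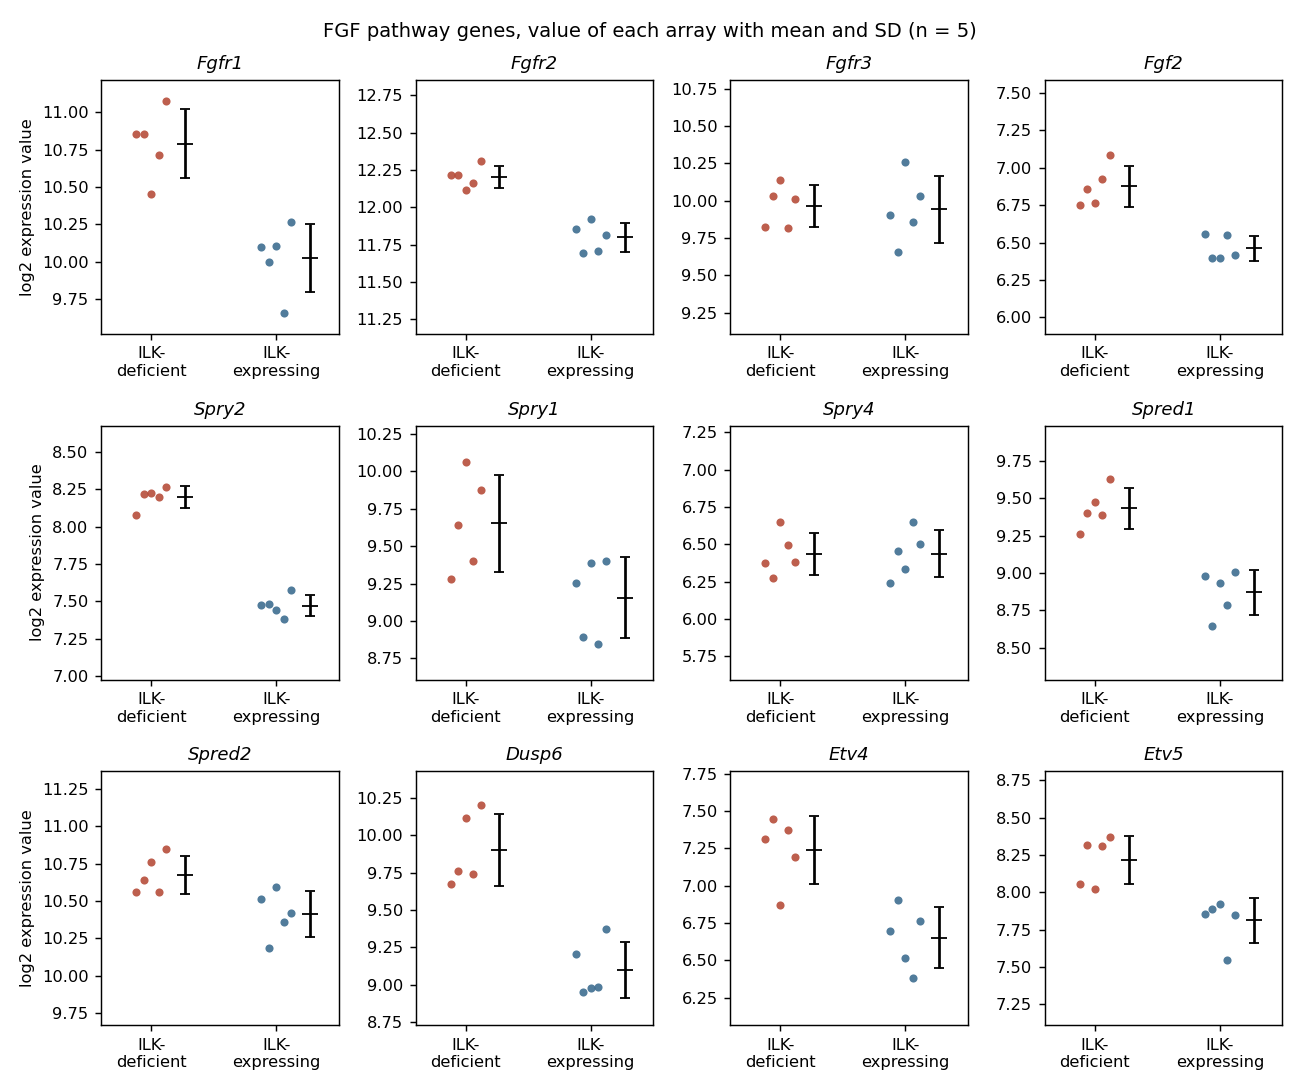
Log2 signal of 12 FGF genes on each array, with ILK-deficient arrays on the left of each panel and ILK-expressing arrays on the right; points are single mice, and the bar with its whiskers is the mean ± SD of 5 arrays. Every panel spans 1.7 log2 units. The groups of points are separate for Fgfr1, Fgfr2, Fgf2, Spry2, Spred1, Dusp6 and Etv5, and overlap for Fgfr3, Spry1, Spry4, Spred2 and Etv4.

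Among the 18 tested ligands and homologous factors only Fgf2 passed, a called share of 5.56%, near the 5.81% of all genes. Fgf2, the basic FGF of wound repair and a mitogen of keratinocytes and fibroblasts, is measured by probe set 10491699. Its log2 signals were 6.75, 6.86, 6.76, 6.93 and 7.08 in ILK-deficient mice 1 to 5, against 6.56, 6.40, 6.40, 6.55 and 6.41 in ILK-expressing mice 1 to 5. The lowest ILK-deficient array lay above the highest ILK-expressing array, so the genotypes did not overlap. The difference was 1.33-fold (log2 fold change 0.41 ± 0.0759 SE, limma adjusted p = 0.0165). Fgf1, the acidic FGF of the same subfamily, averaged 6.34 ± 0.0355 in ILK-deficient and 6.22 ± 0.0793 in ILK-expressing epidermis and did not pass (log2 fold change 0.12, limma adjusted p = 0.329).

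Ligands of the FGF7 subfamily, which signal through the epithelial isoform of Fgfr2, did not pass in any of the 3 genes tested. Fgf22 had the widest spread of the FGF genes. Its log2 signals were 9.02, 8.62, 8.73, 8.47 and 9.23 in ILK-deficient mice, against 8.88, 8.86, 8.51, 9.80 and 10.00 in ILK-expressing mice. The lower end of both genotypes was alike, and ILK-expressing mice 4 and 5 stood above all other arrays. The log2 fold change was −0.40, with a 95% interval of −1.02 to 0.23 (limma adjusted p = 0.609). Fgf7, the keratinocyte growth factor, averaged 5.87 ± 0.154 in ILK-deficient and 5.95 ± 0.120 in ILK-expressing epidermis, and Fgf10 averaged 5.83 ± 0.126 in ILK-deficient and 5.84 ± 0.187 in ILK-expressing epidermis. Both genes were near the minimum signal of 5.64, so that smaller differences were not detectable on these arrays.

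Fgf11, an intracellular FGF homologous factor that is not secreted and does not activate FGF receptors, had log2 signals of 7.65, 8.04, 7.23, 7.20 and 7.50 in ILK-deficient mice, against 7.09, 7.13, 7.41, 6.87 and 7.05 in ILK-expressing mice. Only ILK-expressing mouse 3 lay within the ILK-deficient range. The log2 fold change of 0.41 (95% interval 0.06 to 0.77) had an exact permutation p of 0.0476 and did not pass after adjustment (limma adjusted p = 0.22). The remaining 15 tested ligands and homologous factors had log2 fold changes between −0.07 and 0.12, with limma adjusted p values of 0.329 to 0.987. Their 95% intervals all lay within −0.27 and 0.28. Several, such as Fgf4 and Fgf12, were near the minimum signal of 5.64, where a narrow interval does not show that the transcript was unchanged. The 15 include Fgf5, the inhibitor of hair growth, with means of 6.06 ± 0.0756 in ILK-deficient and 6.09 ± 0.0886 in ILK-expressing epidermis, and Fgf18, a regulator of the hair cycle, with 7.82 ± 0.0810 in ILK-deficient and 7.78 ± 0.0325 in ILK-expressing epidermis (SD, n = 5 each). Fgf3, Fgf6, Fgf14, Fgf16 and the Sprouty gene Spry3 did not reach the minimum signal on enough arrays and were not tested. Their log2 values lay between 5.24 and 5.76 on all arrays.

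The receptors divided into 2 that differed and 3 that did not pass. Fgfr1 (probe set 10570982) is named by the study itself among the growth factor genes raised on these arrays, so its direction here is not independent evidence. Its log2 signals were 10.85, 10.86, 10.45, 10.71 and 11.08 in ILK-deficient mice, against 10.10, 10.00, 10.11, 9.66 and 10.27 in ILK-expressing mice. Every ILK-deficient array was above every ILK-expressing array, ILK-deficient mouse 5 being highest and ILK-expressing mouse 4 lowest. The mean difference was 1.70-fold (log2 fold change 0.76 ± 0.133 SE, limma adjusted p = 0.0136).

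Fgfr2 (probe set 10568436), whose epithelial isoform is the receptor for FGF7 and FGF10, had log2 signals of 12.22, 12.21, 12.12, 12.16 and 12.31 in ILK-deficient mice, against 11.85, 11.70, 11.92, 11.71 and 11.81 in ILK-expressing mice. The genotypes did not overlap, and the SD within a genotype was 0.0720 in ILK-deficient and 0.0954 in ILK-expressing mice. The mean difference was 1.32-fold (log2 fold change 0.41 ± 0.0639 SE, limma adjusted p = 0.00838). A probe set pools exons, so the epithelial and mesenchymal isoforms were not told apart.

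Fgfr3, a receptor best known for restraining bone growth, had log2 signals of 9.82, 10.03, 10.14, 9.82 and 10.01 in ILK-deficient mice, against 9.90, 9.66, 10.26, 9.86 and 10.04 in ILK-expressing mice. The groups lay across each other, with a log2 fold change of 0.02 (95% interval −0.22 to 0.27, limma adjusted p = 0.967). Fgfr4 had signals of 6.10, 6.17, 6.11, 6.08 and 5.97 in ILK-deficient mice, against 5.92, 6.19, 6.03, 6.02 and 5.99 in ILK-expressing mice, with a log2 fold change of 0.06 (95% interval −0.09 to 0.20). Fgfrl1, a receptor that lacks the tyrosine kinase domain, had signals of 7.23, 7.23, 7.31, 7.26 and 7.34 in ILK-deficient mice, against 7.22, 7.30, 7.19, 7.25 and 7.34 in ILK-expressing mice, with a log2 fold change of 0.02 (95% interval −0.10 to 0.13). Neither gene passed, with limma adjusted p values of 0.819 for Fgfr4 and 0.948 for Fgfrl1.

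Whether the signal of one receptor moved more than that of another was asked by their log2 difference within each array. This compares changes and not levels. Over 6 pairs of FGF genes chosen with earlier results known, exact two-sided permutation tests over all splits of the 10 arrays into 5 and 5 were adjusted by Benjamini-Hochberg. That adjustment does not account for the choice of the pairs. The change of Fgfr1 exceeded that of Fgfr3 by 0.74 log2 units (exact permutation p = 0.0159, adjusted 0.0190), and the change of Fgfr2 exceeded that of Fgfr3 by 0.38 (exact permutation p = 0.0159, adjusted 0.0190). The change of Fgfr1 was also larger than that of Fgfr2, by 0.36 (exact permutation p = 0.0159, adjusted 0.0190).

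The feedback inhibitors held the FGF gene with the smallest p value. Spry2 (probe set 10422227), a Sprouty protein that blocks signaling between receptor and RAS-ERK, had log2 signals of 8.08, 8.22, 8.22, 8.20 and 8.27 in ILK-deficient mice, against 7.47, 7.48, 7.44, 7.38 and 7.57 in ILK-expressing mice. The gap between the lowest ILK-deficient and the highest ILK-expressing array was wider than the range within either genotype. The difference was 1.65-fold (log2 fold change 0.73 ± 0.0584 SE, limma adjusted p = 0.000555), and the exact permutation p was 0.00794, the smallest that 5 arrays against 5 can give.

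Spry1, which has a related function, had log2 signals of 9.28, 9.64, 10.07, 9.40 and 9.88 in ILK-deficient mice, against 9.25, 8.89, 9.39, 8.85 and 9.40 in ILK-expressing mice. Most ILK-deficient arrays were the higher ones, but ILK-deficient mice 1 and 4 lay within the ILK-expressing range. The log2 fold change was 0.50 (95% interval 0.12 to 0.87) and did not pass (limma adjusted p = 0.159, exact permutation p = 0.0397). Spry4 had a log2 fold change of 0.00 (95% interval −0.21 to 0.20, limma adjusted p = 0.994), with means of 6.43 ± 0.143 in ILK-deficient and 6.44 ± 0.157 in ILK-expressing epidermis. The change of Spry2 exceeded that of Spry4 by 0.73 log2 units (exact permutation p = 0.00794, adjusted 0.0190). Spry4 had a low signal, its mean lying at percentile 29.9 of the probe sets tested, where differences are harder to detect. That pair therefore mostly restates the change of Spry2, and does not show that Spry4 was unchanged. The change of Spry2 exceeded that of Spry1 by 0.23, which did not pass (exact permutation p = 0.214).

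Of the Spred genes, which bind RAS and neurofibromin and hold RAS-ERK signaling down, Spred1 (probe set 10474671) passed. Its log2 signals were 9.26, 9.40, 9.48, 9.39 and 9.63 in ILK-deficient mice, against 8.98, 8.65, 8.93, 8.78 and 9.01 in ILK-expressing mice. No array of the genotypes overlapped, and the difference was 1.48-fold (log2 fold change 0.56 ± 0.0905 SE, limma adjusted p = 0.00931). Spred2 had log2 signals of 10.56, 10.64, 10.76, 10.56 and 10.85 in ILK-deficient mice, against 10.52, 10.19, 10.59, 10.36 and 10.42 in ILK-expressing mice. ILK-expressing mouse 3 lay among the ILK-deficient arrays, and the log2 fold change of 0.26 (95% interval 0.06 to 0.46) did not pass (limma adjusted p = 0.164). The other probe set of Spred2 gave 0.38 (limma adjusted p = 0.335). The change of Spred1 exceeded that of Spred2 by 0.30 log2 units (exact permutation p = 0.00794, adjusted 0.0190). That difference was found with 1 of the Spred2 probe sets only: with the other, tried after seeing the data, it was 0.19, the genotypes overlapped and it did not pass (exact permutation p = 0.222). Spred3 had a log2 fold change of 0.06 (limma adjusted p = 0.841).

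Dusp6 (probe set 10366043), the cytoplasmic phosphatase that inactivates ERK, had the largest log2 fold change of the tested FGF genes. Its log2 signals were 9.68, 9.76, 10.12, 9.74 and 10.20 in ILK-deficient mice, against 9.21, 8.95, 8.98, 8.99 and 9.37 in ILK-expressing mice. The arrays of the genotypes did not overlap, and ILK-deficient mice 3 and 5 were the highest. The difference was 1.74-fold (log2 fold change 0.80 ± 0.126 SE, limma adjusted p = 0.00838).

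The DNA before the start sites of Spry2, Spred1 and Dusp6 is shown because these 3 feedback inhibitors passed the test together and have a promoter in the RefSeq table used (GRCm38.p6). Each line gives the 150 bases before the annotated start, 5′ to 3′ on the strand of the gene, with matches to GGGCGG, a motif bound by SP1-type factors, in capitals on either strand. The windows are chr14:105896820-105896969 on the minus strand for Spry2, chr10:99263081-99263230 on the plus strand for Dusp6 and chr2:117120921-117121070 on the plus strand for Spred1.
Spry2: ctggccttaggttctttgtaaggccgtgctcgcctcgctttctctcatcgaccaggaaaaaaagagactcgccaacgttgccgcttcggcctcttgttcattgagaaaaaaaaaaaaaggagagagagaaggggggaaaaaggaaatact
Dusp6: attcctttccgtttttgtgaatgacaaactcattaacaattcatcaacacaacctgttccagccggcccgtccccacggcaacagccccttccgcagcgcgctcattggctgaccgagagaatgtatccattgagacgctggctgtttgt
Spred1: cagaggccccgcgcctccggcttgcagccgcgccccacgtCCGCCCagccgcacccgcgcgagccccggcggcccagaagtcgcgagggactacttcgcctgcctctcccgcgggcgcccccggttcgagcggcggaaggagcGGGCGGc
The bases G and C made up 47.3% of the Spry2 window, 51.3% of the Dusp6 window and 80.0% of the Spred1 window. Spred1 held 2 matches to GGGCGG, which began 110 and 7 bases before the start, and the windows of Spry2 and Dusp6 held none.

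A set of 3 motifs was searched on both strands of the 250 bases before the start, in all 32851 promoters of the table, of which 35 belong to 27 FGF genes. CCGGAA, the core of ETS factor sites, was present in 12.0% of all promoters and in 4 of the 35 FGF gene promoters (Fgf5, Fgf12, Fgfr4 and Fgfrl1). TGANTCA, the AP-1 motif, was present in 6.75% of all promoters and in 2 of the 35 (Fgf12 and Fgf13). GGGCGG was present in 32.7% of all promoters and in 23 of the 35, which belong to 19 of the 27 genes. Of the 6 called genes with a promoter in the table, 0 held CCGGAA or TGANTCA and 3 held GGGCGG (Fgf2, Spred1 and Etv5). No motif lies within another, though end bases of CCGGAA and GGGCGG can be shared, and a match describes the letters only.

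The ETS factors Etv4 and Etv5, which ERK signaling induces and which act downstream of FGF receptors, both passed, and each call was lost when some single arrays were left out. Etv4 (probe set 10391490) had log2 signals of 7.31, 7.45, 6.87, 7.37 and 7.19 in ILK-deficient mice, against 6.70, 6.90, 6.52, 6.38 and 6.76 in ILK-expressing mice. ILK-deficient mouse 3 lay just below ILK-expressing mouse 2, so the genotypes overlapped by those arrays. The log2 fold change was 0.59 ± 0.127 SE (limma adjusted p = 0.0307). The call was lost when ILK-deficient mouse 1, 2, 4 or 5, or ILK-expressing mouse 1, 3 or 4, was left out, with limma adjusted p values up to 0.0750.

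Etv5 had log2 signals of 8.06, 8.32, 8.02, 8.31 and 8.37 in ILK-deficient mice, against 7.85, 7.89, 7.92, 7.55 and 7.85 in ILK-expressing mice. The genotypes did not overlap, and the log2 fold change was 0.40 ± 0.0970 SE (limma adjusted p = 0.0471). The identity of this probe set, 10363901, is uncertain: the numbers of its 20 nearest named probe sets all belong to genes of chromosome 10, whereas Etv5 is on chromosome 16. The other Etv5 probe set, 10438626, has 19 of 20 such neighbours on chromosome 16. It averaged 6.81 ± 0.266 in ILK-deficient and 6.37 ± 0.109 in ILK-expressing epidermis, without overlap, and did not pass (log2 fold change 0.44 ± 0.120 SE, limma adjusted p = 0.0782). The call of the first was lost when any 1 array other than ILK-deficient mouse 3 was left out, with limma adjusted p values up to 0.119.

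**Figure D2:**
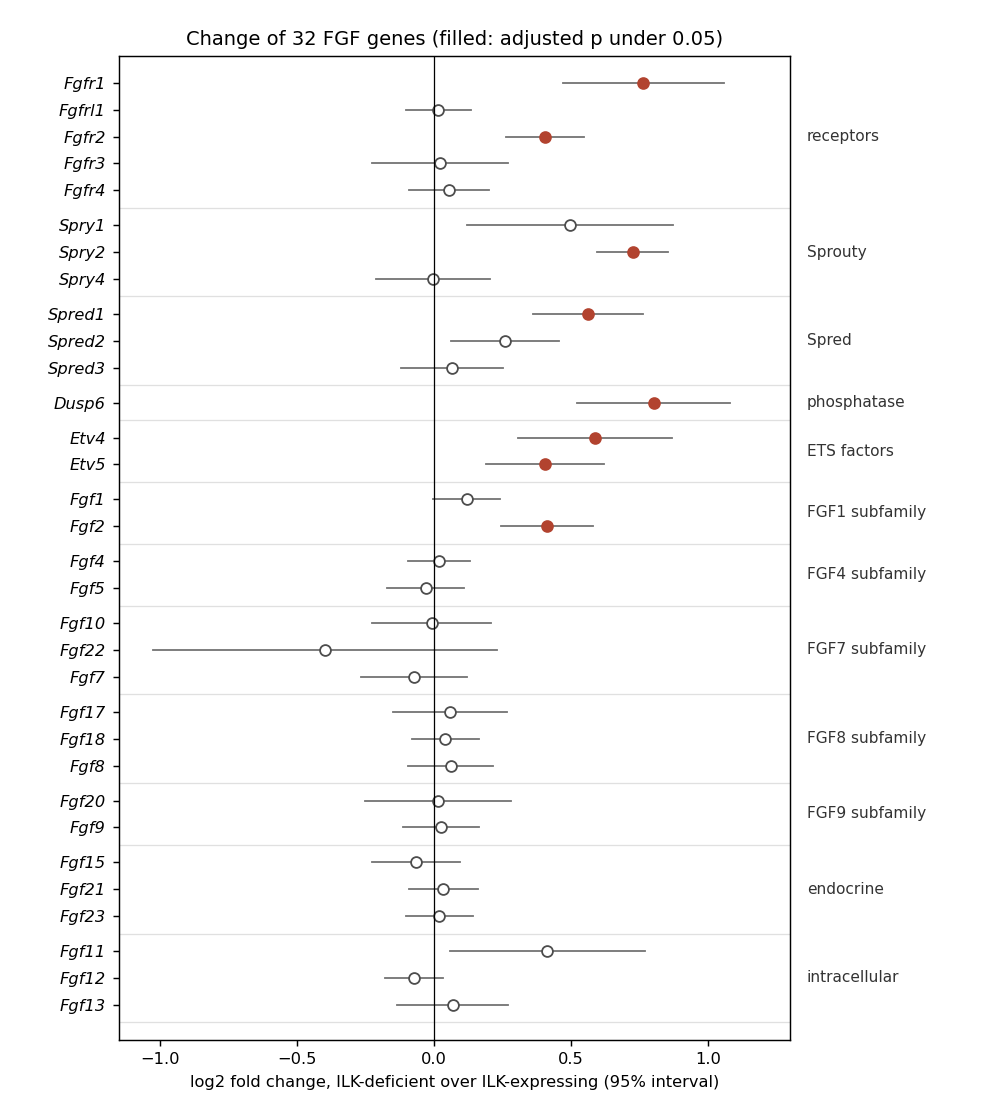
Log2 fold change, ILK-deficient over ILK-expressing, of the 32 tested FGF genes, grouped by role; points are estimates and lines 95% intervals from limma, and filled points have an adjusted p under 0.05. All 8 filled points lie right of 0, between 0.40 and 0.80, and the estimates of most ligands lie within 0.12 of 0.

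The labels also carry a letter code whose meaning is not given. Plain D marks 4 ILK-deficient and 3 ILK-expressing arrays, and the other codes mark ILK-deficient mouse 5 and ILK-expressing mice 4 and 5. With the code as a block, 6 FGF genes were called, Etv4 and Etv5 being lost at limma adjusted p values of 0.0518 and 0.0971. Within the arrays coded D, Spry2 (log2 fold change 0.71, limma adjusted p = 0.00901), Dusp6 (0.78, limma adjusted p = 0.0388) and Fgfr1 (0.65, limma adjusted p = 0.0490) passed. Spred1 (0.53), Fgf2 (0.37), Fgfr2 (0.35), Etv4 (0.55) and Etv5 (0.29) were above 0 on those arrays and did not pass, with limma adjusted p values of 0.0721 to 0.301. The highest Fgf22 signals were those of ILK-expressing mice 4 and 5, which are not coded D. On the arrays coded D the log2 fold change of Fgf22 was −0.04, against −0.40 on all arrays. ILK-deficient mouse 5 was the highest ILK-deficient array for 7 of the 8 called genes, and ILK-expressing mouse 4 was the lowest ILK-expressing array for 4 of them.

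Other genes of the pathway were counted over 5 lists of 87 genes, 75 of them tested, of which 13 were higher and 2 lower, a called share of 20% against 5.81% of all genes and 3.78% of all probe sets. With the probe sets of a gene averaged, 21 of these genes were called, beside 9.34% of all genes. The lists were written with earlier results of these data known. Their median log2 fold change was 0.11, beside 0.00 over all probe sets. Leaving out ILK-deficient mouse 1 or 5 brought the 15 calls to 9 and 8.

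Of 8 tested co-receptors and ligand-binding proteins, 1 was higher. Ncam1, an adhesion molecule that binds FGF receptors, averaged 10.15 ± 0.277 in ILK-deficient and 9.00 ± 0.319 in ILK-expressing epidermis (log2 fold change 1.15, limma adjusted p = 0.00664). Nptn, a receptor-binding membrane protein, had a log2 fold change of 0.00, and Flrt3, a transmembrane partner of FGF receptors, had 0.21 (limma adjusted p = 0.255), and neither passed.

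Heparan sulfate, the sugar chain that FGF ligands need for receptor binding, was represented by 19 tested genes of its synthesis, trimming and core proteins, of which 2 were higher and 1 was lower. Ext1, a polymerase of the chain, averaged 11.29 ± 0.162 in ILK-deficient and 10.57 ± 0.183 in ILK-expressing epidermis (log2 fold change 0.71, limma adjusted p = 0.00664). The core protein Sdc3 had a log2 fold change of 0.94 (limma adjusted p = 0.00965). Hpse, the heparanase that cleaves the chain, averaged 8.84 ± 0.134 in ILK-deficient and 9.69 ± 0.374 in ILK-expressing epidermis (log2 fold change −0.85, limma adjusted p = 0.0185). The syndecans Sdc1 (−0.11) and Sdc4 (0.24) did not pass.

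Of 20 tested adaptors and members of the RAS-ERK cascade, 5 were higher and 0 lower. The RAS GTPase-activating protein Nf1 (log2 fold change 0.61, limma adjusted p = 0.00432), the adaptor Gab2 (0.71, limma adjusted p = 0.0119), the kinase Braf (0.50, limma adjusted p = 0.0194) and a further GTPase-activating protein, Rasa1 (0.29, limma adjusted p = 0.0231), led the list. The fifth was Sos2, an exchange factor for RAS. Genes with opposite roles were thus among the 5, since Nf1 and Rasa1 switch RAS off and Sos2 switches it on. The phosphatase Ptpn11 (−0.11) and the adaptor Gab1 (0.05) did not pass.

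Of 10 other genes listed with ERK feedback, not all of which restrain the signal, only Dusp7 passed (log2 fold change 0.24, limma adjusted p = 0.0496). Dusp7 is an ERK phosphatase related to Dusp6. Errfi1 (−0.05) and Lrig1 (0.10), of the same list, did not pass. Among 18 tested genes listed as transcription factors or targets of ERK signaling, not all of which ERK is known to induce, 4 were higher and 1 was lower. Elk3, an ETS factor, averaged 8.23 ± 0.149 in ILK-deficient and 7.00 ± 0.15 in ILK-expressing epidermis (log2 fold change 1.23, limma adjusted p = 0.00034). Hmga2 (0.40, limma adjusted p = 0.0168), Etv1 (0.45, limma adjusted p = 0.0229) and Ets1 (0.27, limma adjusted p = 0.0352) were also higher. The early response factor Egr3 was lower (−0.58, limma adjusted p = 0.0241). Jun (0.71, limma adjusted p = 0.130) and Ccnd1 (0.11, limma adjusted p = 0.653) did not pass.

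**Figure D3:**
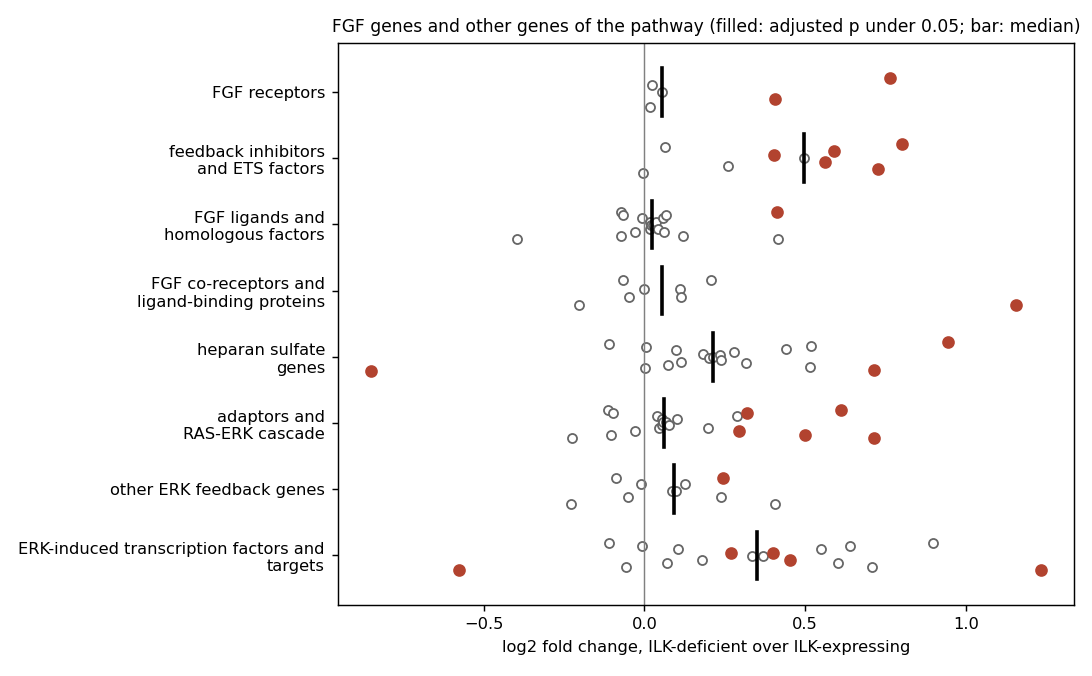
Log2 fold change, ILK-deficient over ILK-expressing, of each tested gene of the receptors, the feedback and ETS genes, the ligands and the 5 pathway lists; each point is a gene and the bar is the median of its list. The medians are 0.06 for the receptors, 0.50 for the feedback and ETS genes, 0.02 for the ligands, and between 0.06 and 0.35 for the 5 lists.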

How the data were processed

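The authors hybridized RNA of 10 epidermis samples to Affymetrix Mouse Gene 1.0 ST chips and deposited 1 log2 value per probe set and array, after background adjustment, quantile normalization and summary over probes. Both GC-RMA and RMA, with Partek for analysis, stand in the study's methods, and which made the table is not given. The 5 arrays of a genotype are separate mice, and their number limits the precision. Genotypes were taken from the sample labels.

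Probe sets were named with the platform annotation, only where it gave 1 symbol. The genotypes were compared with limma 3.58.1 in R 4.3.3 (lmFit and eBayes, no block), with Benjamini-Hochberg adjustment over the 32046 probe sets that reached a linear signal of 50 on 5 arrays or more. The code of the fit was run on simulated arrays with independent noise and no batches, which does not test the calls made here. Single genes were also compared by exact permutation. Every array is given for FGF genes that passed or did not overlap, for the receptors and for the 10 FGF genes of highest mean, and the values of other single FGF genes were chosen after they were seen. Of each pathway list, up to 4 genes past the test by smallest p and up to 2 of the highest mean that did not pass are named, to which Sos2 and Ets1 were added after their values were seen. The FGF genes and all lists were chosen with earlier results of these data known. Alternatives changed the filter, scaling, test, block, probe sets and arrays used. Single exons were not analysed here.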

Additional observations from a re-analysis of the deposited data

Results flagged for a closer look

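Etv5 was 7.55 on the array of ILK-expressing mouse 4, below the 7.85 to 7.92 of the other 4 ILK-expressing arrays, and far enough from them to count as an outlying array among 5. Of the 64 sets of 5 arrays looked at, this was 1, and chance alone gives about 1 in 20. The probe set is the one whose identity is uncertain, and without that array its limma call was lost.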

How the results depend on the processing

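Of 22 alternatives, 1 was added after seeing the data, the use of the other Etv5 probe set, which left 7 FGF genes called. The other Spred2 probe set was also tried after seeing the data, for the pair with Spred1 alone. Spry2, Dusp6 and Fgfr1 passed under all 22, with limma adjusted p values of up to 0.0135, 0.0388 and 0.0490. Spred1 was lost only with the arrays coded D, Fgf2 and Fgfr2 under the replicate block and with the arrays coded D, Etv4 in 10 alternatives and Etv5 in 16. None of the 8 reversed, and no other FGF gene gained a call. With the replicate number of the labels as a block, 5 FGF genes, 9 pathway genes and 608 probe sets were called, against 8, 15 and 1211 without it. Same-numbered arrays did not pair, their deviations correlating at −0.02, −0.30, −0.18, −0.11 and 0.11. With the arrays coded D, the counts were 3, 3 and 294, on fewer arrays. The methods' ANOVA, adjusted, called 686 probe sets. Leaving out 1 array gave 6 to 8 FGF genes, 8 to 14 pathway genes and 597 to 1010 probe sets. The count of probe sets moved by over 1.5 times without ILK-deficient mouse 1 (723), 2 (756) or 5 (597), or ILK-expressing mouse 2 (797) or 4 (651). Non-overlapping FGF genes numbered 7 to 10, and the median log2 fold change was 0.03 to 0.08, over all alternatives. The cause of these moves was not tested.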
